A study of Mus musculus with 3 samples.

Results

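The genes described here are those whose symbols mark them as A, B, D or E cyclins, cyclin-dependent kinases (CDKs), CDK inhibitors, E2F factors, Aurora kinases, Myc or Mycn. They were taken by that symbol pattern from the protein-coding rows of the authors' gene lists, 1 list for each fusion protein. The pattern found 27 genes, with 20 on the GFI1 list and 22 on that of GFI1B, of the 5238 and 5327 genes that these lists hold. RefSeq names 52 protein-coding mouse genes of the same pattern, so 27 (51.9%) were on either list, beside 26.5% of all protein-coding genes, and 25 on neither. The experiment was DamID, in which a bacterial adenine methyltransferase (DAM) joined to a DNA-binding protein leaves methyl marks on GATC sites close to where that protein sits. The series has 3 groups: GFI1:DAM, GFI1B:DAM and the unfused DAM control (DAM ctrl), each expressed on doxycycline from the Hprt locus of AinV18 mouse embryonic stem cells. In all 3, FLK1+ cells came from embryoid bodies at day 3.25 and haemogenic endothelium was sorted by TIE-2 and c-KIT after 2 further days in culture, so the proteins were supplied from a transgene in cells made in the dish. Each group is 1 sample that combines 2 biological replicates, and the labels give no spread between them. No value below therefore has an error, and nothing was tested. The lists hold no expression values, so the sorted cell type could not be checked against its markers.

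Cells enter the division cycle when D cyclins with CDK4 and CDK6, and then E cyclins with CDK2, phosphorylate the retinoblastoma protein and free the activating E2F factors, a step that MYC proteins promote. A and B cyclins with CDK1, helped by the Aurora kinases, later drive entry into mitosis, while the KIP and INK4 inhibitors hold CDKs back. GFI1 and GFI1B are zinc-finger repressors of blood development, and in mice Gfi1 is known for restraining the proliferation of haematopoietic stem cells.

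Most G1 genes were on both lists, whereas the listed mitotic genes were mostly on the GFI1B list. Of 13 G1 genes 9 were on the GFI1 list and 7 on the GFI1B list, and the 7 were among the 9. Among these 7, Ccne1 and Mycn had no interval of one fusion overlapping an interval of the other. Of 9 mitotic genes 1 was listed for GFI1 and 5 for GFI1B. Of 7 CDK inhibitor genes 2 were listed for each fusion, with Cdkn1b the one in common. Over all 52 genes of the pattern GFI1 listed 38.5% and GFI1B 42.3%, where 18.4% and 19.1% of all protein-coding genes were listed. Both fusions listed 15 of the 52, against 11.0% of all protein-coding genes. GFI1 alone listed 5 (7.41% of all protein-coding genes) and GFI1B alone 7 (8.13%). The mitotic count for GFI1, 1 of 9 (11.1%), is too small to set apart from the share of all coding genes. So are the inhibitor counts, 2 of 7 (28.6%) for each fusion. The mitotic count for GFI1B, 55.6%, lay above that share. Among genes at or above their list's median read density, which 9.01% and 9.53% of all coding genes were, the counts for GFI1 and GFI1B were 3 and 4 G1 genes, 1 and 3 mitotic genes, and 2 and 1 inhibitors. Whether the fusions differ in mitotic genes was not tested, and each count is small and rests on 1 pooled sample.

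**Figure D1:**
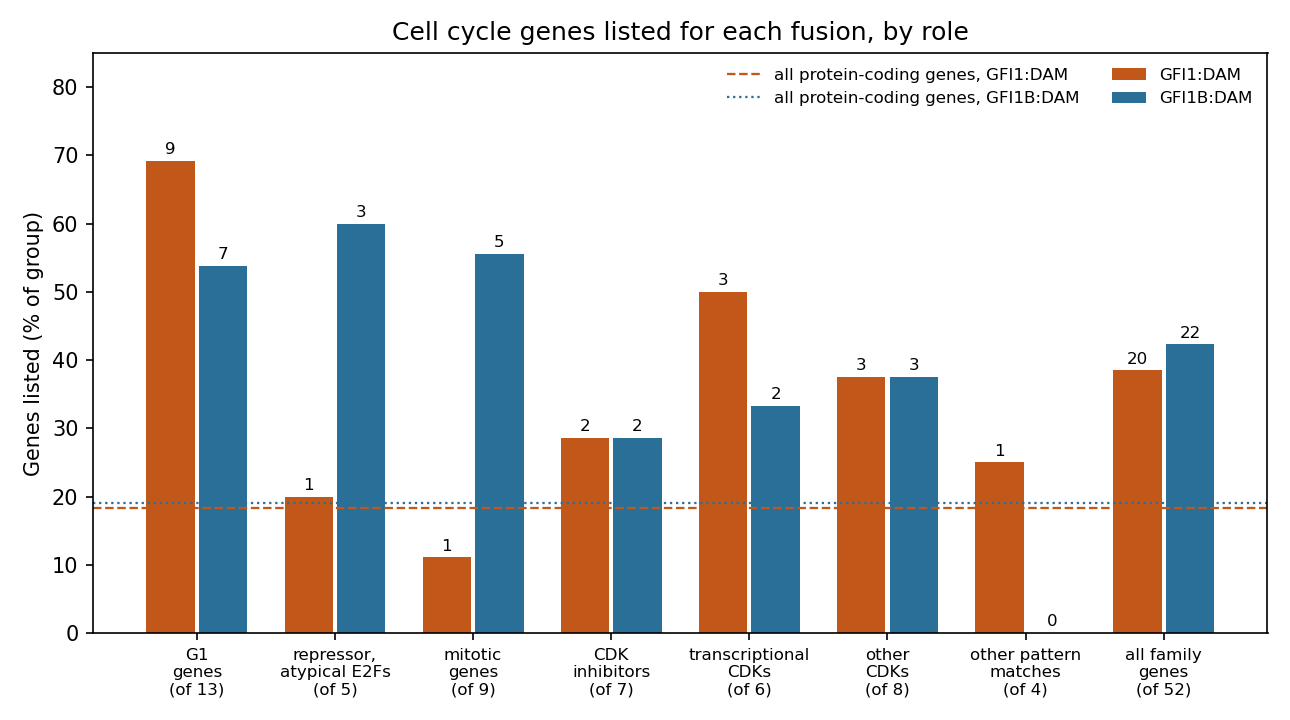
Share of each role group that was listed (y axis, percent of the group's genes) for GFI1:DAM (orange) and GFI1B:DAM (blue), with the number of genes above each bar, and lines at the 18.4% and 19.1% of all protein-coding genes listed for GFI1 and GFI1B. G1 genes stand above the lines for both fusions. Mitotic genes stand above the line for GFI1B, while the GFI1 bar is 1 gene of 9.

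Gene length moves with listing in these data, and it was set beside the counts. Between 4.16 and 11.6 kb of gene length, where 22 genes of the pattern fall, the GFI1 list held 9 and the GFI1B list 8 (40.9% and 36.4%), against 8.77% and 9.29% of all coding genes of that length. Above 57.1 kb 9 and 8 of 11 were listed (81.8% and 72.7%), against 43.8% and 44.1%. From 11.6 to 24.6 kb the fusions stood apart, with 1 of 11 listed for GFI1 (E2f2) and 5 for GFI1B (Aurka, Cdk1, Cdkn2a, E2f6 and E2f8), against 12.6% and 14.9%. The 5 genes of 24.6 to 57.1 kb were in neither list, where 21.8% and 22.1% of coding genes were listed.

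The strength of a listed gene is given as the authors' reads per kb of interval, which ranks genes inside a list and is not scaled between lists. The 20 GFI1 members ranged from 24.1 to 99.9 reads per kb with a median of 52.5, beside 48.3 for all listed coding genes. The 22 GFI1B members ranged from 23.4 to 134 with a median of 67.8, beside 53.6. At or above the median of their list stood 11 of 20 and 13 of 22. The percentile of a gene below is the share of listed coding genes with fewer reads per kb.

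**Figure D2:**
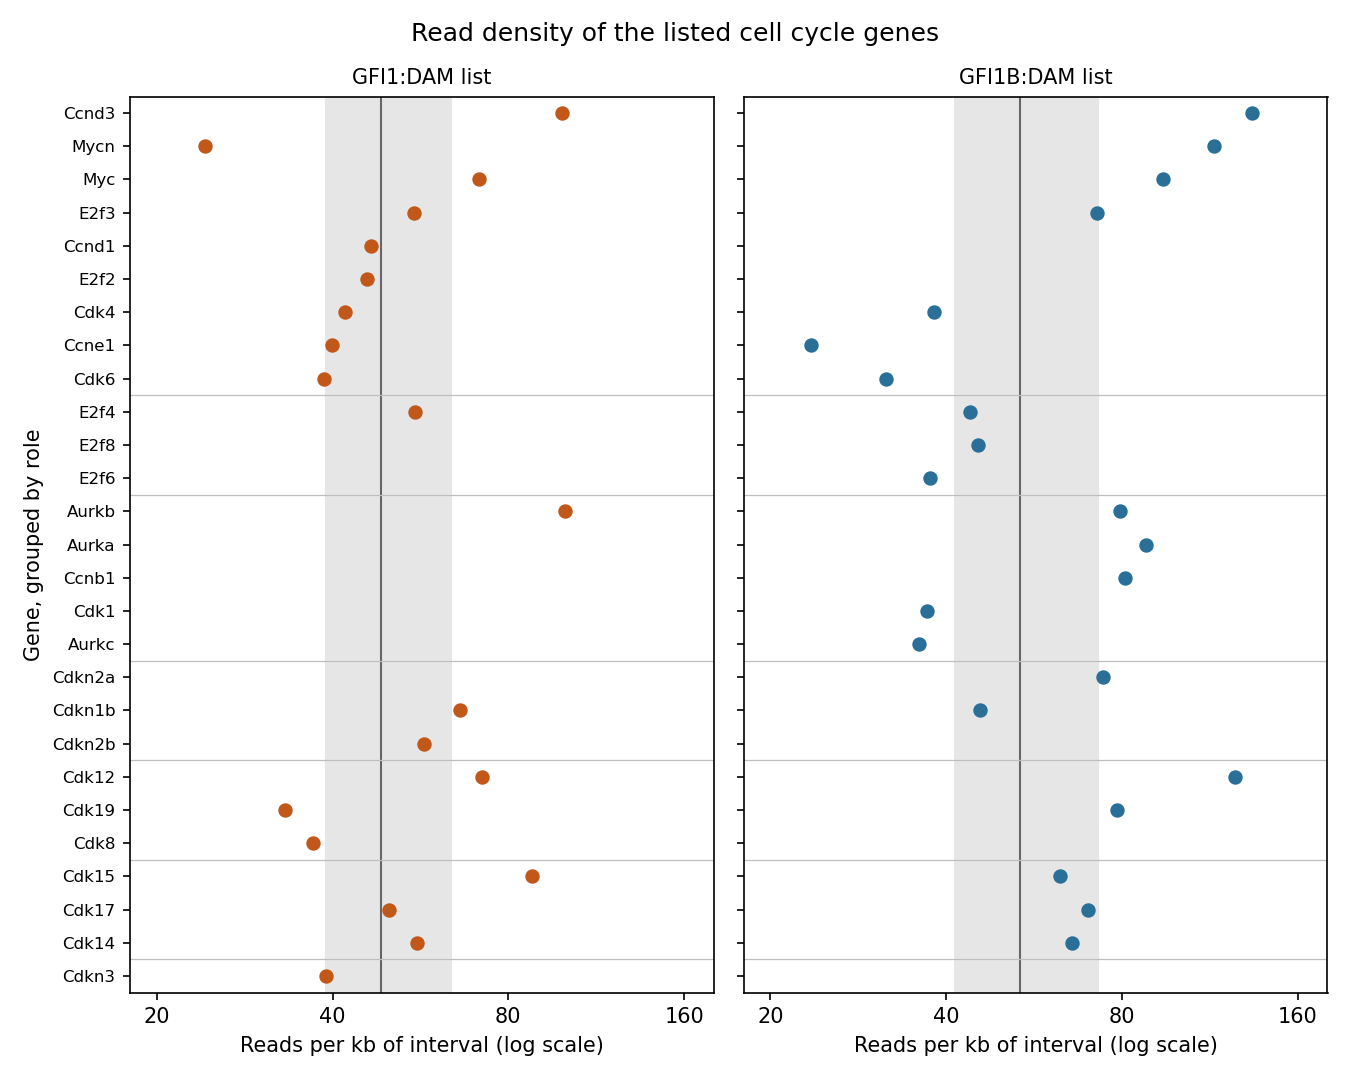
Reads per kb of interval (x axis, log scale) for each listed member (y axis, grouped by role) in the GFI1:DAM list on the left and the GFI1B:DAM list on the right, 1 point per gene and no point where it was not listed. The line and the grey band mark the median and the middle 50% of all listed protein-coding genes. Ccnd3, Myc, Aurkb and Cdk12 lie above the band in both lists, and Mycn lies below it for GFI1 and above it for GFI1B.

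Among the D cyclins, the partners of CDK4 and CDK6, Ccnd3 had the highest density of any G1 gene in both lists. It had 99.0 reads per kb with GFI1:DAM and 134 with GFI1B:DAM, at percentiles 92.4 and 95.4. Its GFI1 interval (mm9 chr17:47704097-47705247) shared 695 bp with the GFI1B interval at chr17:47704041-47704791, and GFI1B had a further one 42.6 kb away at chr17:47659891-47661541. Ccnd1 was listed for GFI1 alone, near the middle of the list, at 46.6 reads per kb (chr7:152154496-152155846), and the nearest GFI1B interval lay 473 kb off, under Ppfia1. Ccnd2 was in neither list.

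RefSeq gives Ccnd3 a pair of promoter windows of 300 bases, each from 250 bases before to 50 after a start and written 5′ to 3′ along the gene, shown here because this gene leads the G1 genes for both fusions. They lie on the plus strand of GRCm38.p6 at chr17:47504801-47505100 and chr17:47593217-47593516. Capitals would mark GATC, the letters that DAM methylates and DpnI cuts, and both windows have 0 of them.
Ccnd3 first start: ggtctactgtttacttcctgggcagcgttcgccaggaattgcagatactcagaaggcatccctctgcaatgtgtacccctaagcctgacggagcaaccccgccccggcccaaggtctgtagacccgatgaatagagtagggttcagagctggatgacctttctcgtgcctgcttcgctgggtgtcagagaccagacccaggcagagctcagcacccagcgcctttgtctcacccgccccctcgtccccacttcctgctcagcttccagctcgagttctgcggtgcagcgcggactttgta
Ccnd3 second start: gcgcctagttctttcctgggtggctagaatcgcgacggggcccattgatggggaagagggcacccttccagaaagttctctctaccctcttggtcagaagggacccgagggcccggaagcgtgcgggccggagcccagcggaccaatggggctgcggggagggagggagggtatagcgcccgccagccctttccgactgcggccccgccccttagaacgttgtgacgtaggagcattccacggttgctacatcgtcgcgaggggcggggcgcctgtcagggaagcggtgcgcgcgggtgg
The deposited intervals are on mm9 and were not carried over to this build, so where they lie relative to these windows is not given.

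Ccne1, the E cyclin that activates CDK2, was weak in both lists, at 40.0 reads per kb with GFI1:DAM and 23.4 with GFI1B:DAM. The GFI1B value stood at percentile 1.2 of its list. The GFI1 intervals, chr7:38864446-38865296 and chr7:38888996-38889796, did not overlap the GFI1B interval at chr7:38861048-38862498, and the smaller gap was 1.95 kb. Ccne2 and Cdk2 were in neither list.

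Cdk4 and Cdk6, the kinases that D cyclins activate, were listed for both fusions below the median read density of each list. Cdk4 had 42.1 reads per kb with GFI1:DAM and 38.2 with GFI1B:DAM, and its GFI1 interval of 951 bp (chr10:126501937-126502887) lay wholly inside the GFI1B interval of 2201 bp. Cdk6 had 38.7 and 31.6 reads per kb. By read number Cdk6 stood at percentile 79.1 for GFI1 and 46.0 for GFI1B, and Cdk4 at 14.6 and 42.3. Each fusion had a pair of Cdk6 intervals, of which 1 overlapped, by 701 bp near chr5:3351682-3352732, and the other GFI1B interval lay 161 kb from any GFI1 interval.

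Myc, the gene of a growth-promoting factor that induces D cyclins and E2Fs, stood high in both lists, with 71.2 reads per kb with GFI1:DAM and 94.2 with GFI1B:DAM, at percentiles 80.9 and 87.9. The fusions had 1 place in common, chr15:61823370-61824770 for GFI1 and chr15:61823750-61825550 for GFI1B, with 1021 bp shared. GFI1 had another interval at chr15:61786020-61787470, 36.3 kb from the nearest GFI1B interval, and GFI1B another at chr15:61832600-61833600. For GFI1 the intervals spread over 38.8 kb and for GFI1B over 9.85 kb, while the gene is 5.02 kb long in RefSeq, so at least 1 interval for each fusion does not touch the gene.

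Mycn, a MYC paralogue of embryonic tissues, gave the widest contrast in rank. With GFI1:DAM it had 24.1 reads per kb, at percentile 1.63, and with GFI1B:DAM 115, at percentile 92.8. The values come from different places. The GFI1 intervals were a wide one of 3901 bp (chr12:12937488-12941388) and one of 1651 bp (chr12:12956538-12958188), and the GFI1B interval of 851 bp (chr12:12945048-12945898) lay between them without touching either. By read number rather than density, it stood at percentile 75.5 of the GFI1 list (134 reads over 5552 bp) and at percentile 50.1 of the GFI1B list (98 reads over 851 bp).

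Of the activating E2F genes, E2f3 was on both lists, at 55.0 reads per kb with GFI1:DAM and 72.4 with GFI1B:DAM. The GFI1B interval of 801 bp (chr13:29995106-29995906) lay wholly inside a GFI1 interval of 1651 bp, and their midpoints were 29 bp apart. E2f2 was listed for GFI1 alone at 45.8 reads per kb (chr4:135726584-135727434), with the nearest GFI1B interval 27.3 kb away under Id3. E2f1 was in neither list.

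Repressor and atypical E2Fs, which keep E2F targets off, numbered 1 of 5 for GFI1 and 3 of 5 for GFI1B. E2f4, a partner of the retinoblastoma-like pocket proteins in resting cells, had 55.3 reads per kb with GFI1:DAM and 43.9 with GFI1B:DAM, from 36 and 33 reads, at intervals that shared 597 bp (chr8:107820729-107821379 for GFI1). E2f6, a repressor that works with Polycomb proteins, was on the GFI1B list alone at 37.6 reads per kb, with 1 of its intervals 3901 bp wide (chr12:16837548-16841448). E2f8, an atypical E2F, was there too at 45.3 reads per kb (chr7:56115898-56116648). All 3 lay below the median read density of the GFI1B list. By read number E2f6 stood at percentile 74.6 of that list (173 reads over 4602 bp), and E2f4 and E2f8 at 4.16 and 4.95. E2f5 and E2f7 were in neither list.

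Among the mitotic genes Aurkb, which encodes the kinase of the chromosomal passenger complex, was the member with the most similar interval in both lists. It had 99.9 reads per kb with GFI1:DAM and 79.4 with GFI1B:DAM, from 175 and 139 reads. The intervals, chr11:68854463-68856213 for GFI1 and chr11:68854473-68856223 for GFI1B, were both 1751 bp wide and were 10 bp out of step. For GFI1 this was the highest density of all 20 members.

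A further 4 mitotic genes were on the GFI1B list alone, with Aurka and Ccnb1 above the list's median read density and Cdk1 and Aurkc below it. Aurka, the gene of the centrosome and spindle pole kinase, had 88.1 reads per kb from 194 reads at chr2:172195172-172197372, the one member interval that was also listed under another gene, Cstf1. Ccnb1, the B cyclin that activates CDK1, had 81.1 reads per kb at chr13:101554556-101555406, from 69 reads over 851 bp, so that it stood at percentile 81.6 by density and 33.1 by read number. Cdk1 itself had 37.1 reads per kb from 26 reads at chr10:68805171-68805871, and Aurkc, an Aurora kinase of germ cells, had 36.0 from 36 reads at chr7:6936998-6937998. None of these 4 intervals overlapped any GFI1 interval. The nearest lay 4.45 kb off for Aurkc, 21.0 kb for Aurka, 191 kb for Cdk1 and 452 kb for Ccnb1, each listed under a different gene. The A cyclin genes Ccna1 and Ccna2 and the B cyclin genes Ccnb2 and Ccnb3 were in neither list. Without Ccna1, Ccnb3 and Aurkc, which act mainly in germ cells, the counts were 1 and 4 of 6.

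The Aurka promoter window (GRCm38.p6, chr2:172370521-172370820, minus strand) is shown as that of the strongest mitotic gene for GFI1B. It holds 2 GATC sites, in capitals.
Aurka: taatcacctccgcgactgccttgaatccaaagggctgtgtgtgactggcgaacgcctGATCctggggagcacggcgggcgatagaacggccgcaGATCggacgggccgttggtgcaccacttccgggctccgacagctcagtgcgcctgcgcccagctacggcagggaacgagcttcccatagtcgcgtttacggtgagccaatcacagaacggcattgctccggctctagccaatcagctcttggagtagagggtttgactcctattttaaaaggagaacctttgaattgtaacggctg
Of the 7 mitotic promoter windows from RefSeq, 3 hold GATC (42.9%), as do 5 of 12 windows of G1 genes (41.7%) and 4 of 9 of CDK inhibitors (44.4%), beside 46.6% of all 21263 windows of coding genes. The letters CCAAT, which NF-Y binds in many mitotic promoters, stand on either strand in 6 of the 7 mitotic windows (85.7%), against 38.2% of all windows, and TTTGAA, the cell cycle homology region, in 3 of 7 (42.9%), against 16.0%. These shares are of role groups, listed or not. The mitotic windows include Ccna1, Ccnb2 and Ccnb3, which were in neither list, and lack Aurkb and Ccna2. The G1 windows come from 9 genes and lack Ccnd1, Ccnd2, Ccne2 and Myc, while Ccnd3, E2f2 and E2f3 give a pair each. Windows of inhibitors come from 6 genes and lack Cdkn1c, while Cdkn1a, Cdkn2a and Cdkn2c give a pair each. AATC, the core of the site that GFI1 proteins bind, is in 60.0% of the 25 windows of listed members and in 70.8% of all windows. Of the E2F motifs, TTTCCCGC is in 4 of the 47 windows of pattern genes (8.51%) and TTTGGCGC in 2 (4.26%), against 1.41% and 0.635% of all windows. TTTCCCGC is in 2 of 25 windows of listed members and 2 of 22 windows of unlisted pattern genes. TTTGGCGC is in 2 and 0 of them. CCAAT and AATC share letters wherever CCAAT is followed by C. A match is a property of the reference sequence, not a measured site.

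The CDK inhibitors were represented by 3 of 7 genes (42.9%), beside 26.5% of all protein-coding genes on either list. Cdkn1b, which encodes the KIP1 inhibitor, was on both lists, at 66.1 reads per kb with GFI1:DAM and 45.8 with GFI1B:DAM, the first above and the second below its list's median. The intervals shared 1160 bp, at chr6:134868564-134869864 for GFI1 and chr6:134868705-134870955 for GFI1B. The neighbouring INK4 genes on chromosome 4 were split. Cdkn2b, the INK4B gene, was listed for GFI1 alone at 57.4 reads per kb (chr4:88947784-88948584). Cdkn2a, the gene of INK4A and ARF, was listed for GFI1B alone at 74.4 reads per kb (chr4:88923064-88923964). These intervals lay 23.8 kb apart, and each was the nearest interval of the other fusion. By read number Cdkn1b stood at percentile 55.4 for GFI1 and 52.6 for GFI1B (103 reads over 2251 bp). Cdkn2b stood at 21.6 for GFI1 (46 reads over 801 bp) and Cdkn2a at 31.2 for GFI1B (67 reads over 901 bp). For GFI1B the order of Cdkn1b and Cdkn2a thus depends on the measure. Cdkn1a, Cdkn1c, Cdkn2c and Cdkn2d were in neither list.

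The promoter windows of Cdkn1b and Cdkn2a are shown as those of the strongest inhibitor gene for GFI1 and for GFI1B. The Cdkn1b window (GRCm38.p6, chr6:134920151-134920450, plus strand) has 0 GATC sites. The Cdkn2a windows on the minus strand, chr4:89282143-89282442 for the downstream start and chr4:89294570-89294869 for the upstream one, have 1 each, in capitals.
Cdkn1b: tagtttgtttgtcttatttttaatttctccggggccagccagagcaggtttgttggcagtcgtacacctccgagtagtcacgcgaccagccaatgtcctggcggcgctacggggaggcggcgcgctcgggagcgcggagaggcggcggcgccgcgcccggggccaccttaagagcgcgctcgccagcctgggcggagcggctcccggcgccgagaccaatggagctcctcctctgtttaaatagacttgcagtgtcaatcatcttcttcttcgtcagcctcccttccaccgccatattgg
Cdkn2a downstream start: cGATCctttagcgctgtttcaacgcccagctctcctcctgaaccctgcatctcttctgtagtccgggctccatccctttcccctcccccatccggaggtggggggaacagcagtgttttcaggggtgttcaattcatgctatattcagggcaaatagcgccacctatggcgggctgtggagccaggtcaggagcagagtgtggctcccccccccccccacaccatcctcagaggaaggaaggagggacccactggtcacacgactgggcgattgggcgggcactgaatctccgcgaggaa
Cdkn2a upstream start: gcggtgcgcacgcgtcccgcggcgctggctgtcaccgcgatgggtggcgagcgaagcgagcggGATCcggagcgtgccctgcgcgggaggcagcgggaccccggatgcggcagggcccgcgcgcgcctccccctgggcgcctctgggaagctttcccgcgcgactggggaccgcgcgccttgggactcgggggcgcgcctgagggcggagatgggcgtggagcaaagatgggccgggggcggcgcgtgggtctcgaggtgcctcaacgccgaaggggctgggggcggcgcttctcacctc

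Of the transcriptional CDKs, Cdk12, which encodes a kinase of the RNA polymerase II tail, was strong in both lists, at 72.1 reads per kb with GFI1:DAM and 125 with GFI1B:DAM. Its GFI1B interval of 1151 bp lay wholly inside its GFI1 interval (chr11:98068763-98070163). Cdk19, a Mediator kinase gene, had 33.2 reads per kb from 1 interval for GFI1 and 78.4 from 3 for GFI1B, with no overlap and a smallest gap of 4.62 kb. Its paralogue Cdk8 was listed for GFI1 alone at 37.0 reads per kb, from a pair of intervals 728 kb or more from any GFI1B interval. Cdk7, Cdk9 and Cdk13 were in neither list.

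The remaining CDKs on the lists were long genes with many intervals. Cdk14 and Cdk15, PFTAIRE kinases, had 55.7 and 87.9 reads per kb on the GFI1 list, and 65.7 and 62.7 on that of GFI1B. Cdk14 carried 5 GFI1 intervals and 4 GFI1B intervals, and 3 of each overlapped, including the widest interval of any member, 5101 bp for GFI1B (chr5:5341932-5347032) around a GFI1 interval of 4051 bp. Cdk15 carried 2 and 4, with 2 overlapping. Cdk17, a PCTAIRE kinase gene, had 49.96 reads per kb from 3 intervals for GFI1 and 69.9 from 5 for GFI1B, again with 2 overlapping. Cdk5, Cdk10, Cdk16, Cdk18 and Cdk20 were in neither list. The pattern also takes in 4 genes that are none of these families by function, of which Cdkn3, a phosphatase that acts on CDKs, was on the GFI1 list at 39.0 reads per kb. Ccnb1ip1, Cdkn2aip and Cdkn2aipnl were in neither list.

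Of the 15 members in both lists 12 had a GFI1 interval overlapping a GFI1B interval of that gene by at least 1 bp (80.0%), near the 77.2% of the 2472 coding genes in both lists. The 3 exceptions were Ccne1, Cdk19 and Mycn. Counted by interval, 16 of 33 GFI1 intervals of members overlapped a GFI1B interval (48.5%, against 39.2% of all 7166), and 16 of 38 GFI1B intervals overlapped a GFI1 interval (42.1%, against 36.9% of all 7595). With at least 50% of both intervals in common, 10 of the member intervals overlapped for each fusion (30.3% and 26.3%, against 28.5% and 26.9% of all). The 12 members listed for 1 fusion had 14 intervals, and none touched any interval of the other fusion, under whatever gene it was listed. Their gaps ran from 4.45 to 788 kb with a median of 38.5 kb. Among all coding genes listed for 1 fusion, 0.769% for GFI1 and 1.17% for GFI1B had such a touching interval. The DAM control is the only control in the series, so the lists may share it, and how much of the overlap comes from that was not tested.

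**Figure D3:**
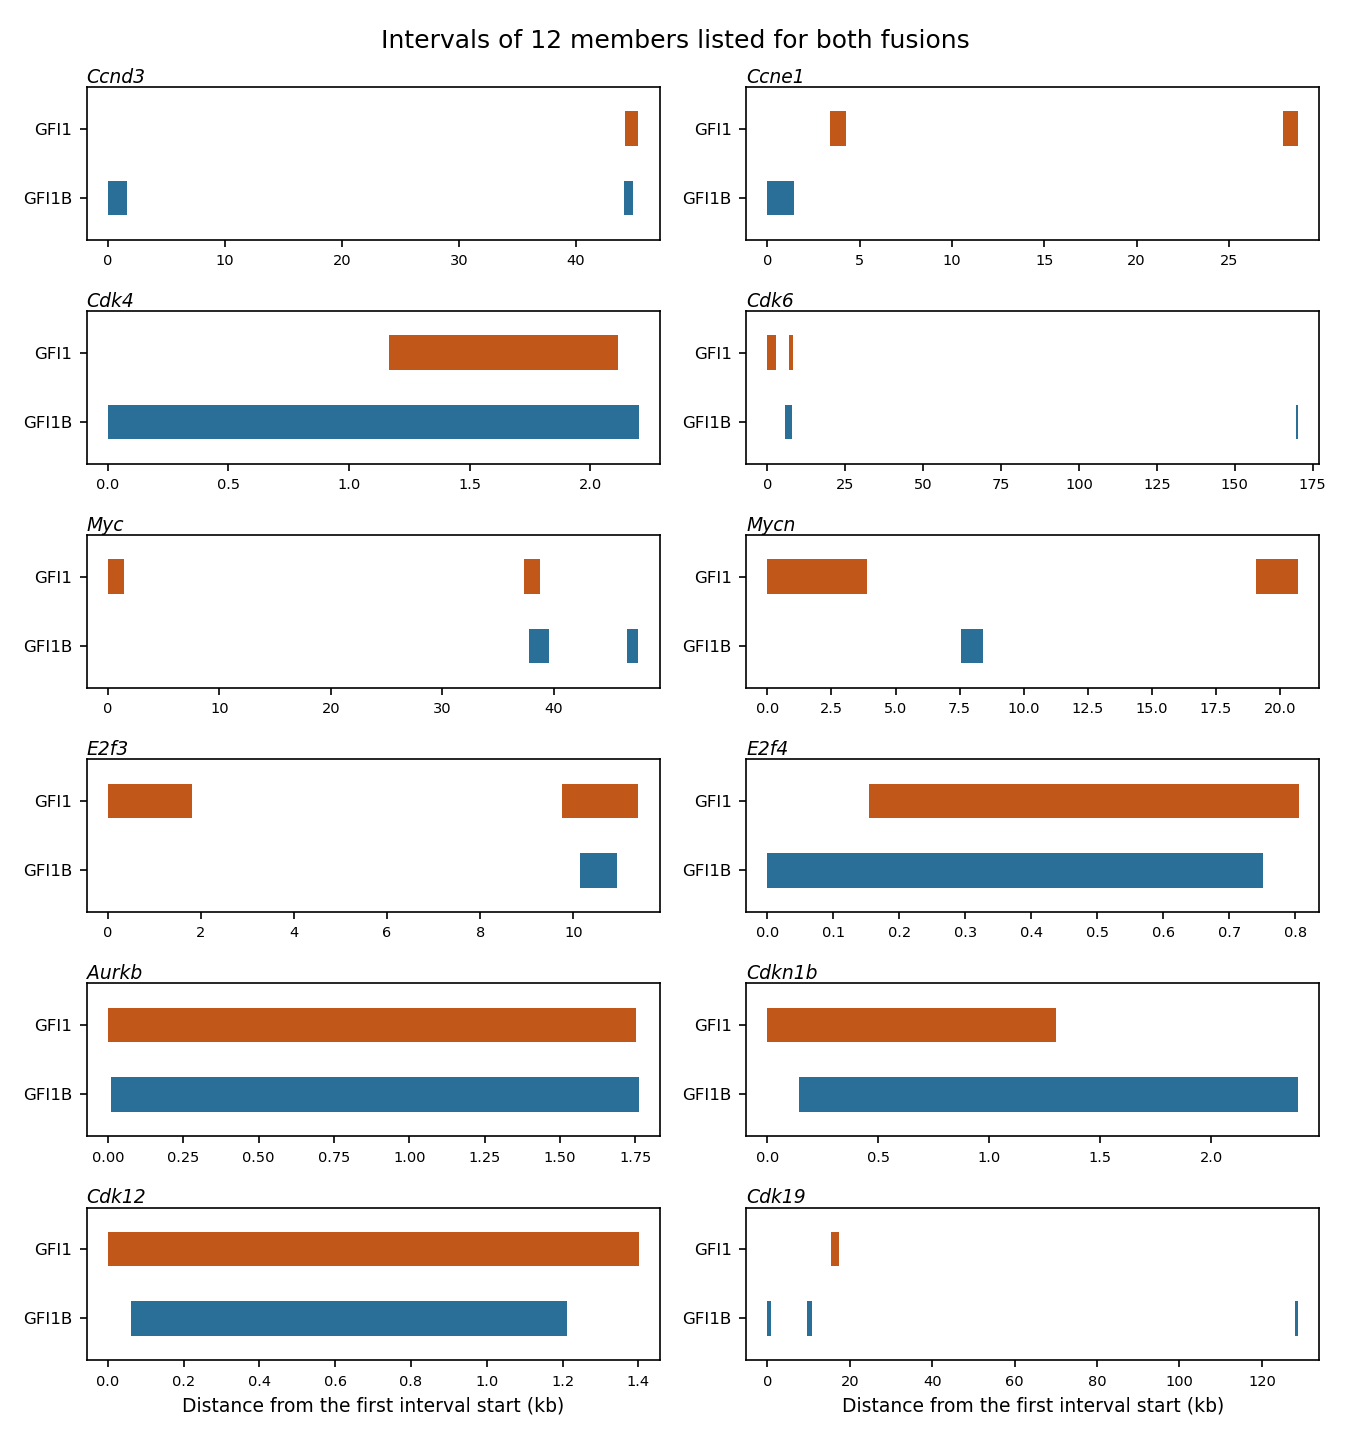
Intervals of 12 members listed for both fusions, with GFI1:DAM above (orange) and GFI1B:DAM below (blue), against the distance in kb from the first interval of the gene, on a separate scale for each gene. Aurkb, Cdk12, E2f4, Cdkn1b and Cdk4 show 1 overlapping place, Ccnd3 and E2f3 an overlapping place and a further one, Myc and Cdk6 an overlapping place and a further one for each fusion, and Ccne1, Mycn and Cdk19 no overlap.

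Most members had a single interval, 11 of 20 for GFI1 (55.0%) and 14 of 22 for GFI1B (63.6%), beside 72.1% and 69.1% of listed coding genes. Median width was 1451 bp for the GFI1 intervals of members and 1001 bp for their GFI1B intervals, beside 1201 and 1351 bp for the intervals of all coding genes, so the order of the fusions was reversed in these pooled medians. It was not reversed within CDK inhibitors (1051 and 1576 bp, 2 intervals each) or repressor and atypical E2Fs (651 and 751 bp, 1 and 4 intervals). The remaining role groups listed for both fusions were reversed, but the mitotic medians rest on 1 GFI1 interval and 5 GFI1B intervals. That GFI1 interval is the one of Aurkb, which was 1751 bp wide for both fusions. Of the 12 members with several intervals for a fusion, 5 (Ccne1, Cdk14, Cdk15, Myc and Mycn) had them spread wider than the RefSeq gene plus the interval widths, which places at least 1 interval outside the gene.

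Of 64 genes that work with the members, in 5 lists, 21 were on the GFI1 list (32.8%) and 19 on the GFI1B list (29.7%), 12 of them on both, where 18.4%, 19.1% and 11.0% of all protein-coding genes were listed. Pocket protein and MuvB genes gave 5 and 4 of 12. Rb1, the retinoblastoma gene, had 5 intervals for GFI1 at 59.7 reads per kb and 8 for GFI1B at 71.1. Some of them were also listed under Lpar6 and, for GFI1B, under Rcbtb2. Lin54, a DNA-binding MuvB subunit, was at 43.1 for GFI1 and 81.3 for GFI1B. The MYC network gave 2 of 10 for each fusion, Mlxip (50.8 for GFI1, 36.0 for GFI1B) and Mxi1 (39.0 and 43.0), near the share of all coding genes. CDK regulators gave 4 of 13 each. Wee1, a kinase that inhibits CDK1, was at 54.5 and 57.5 reads per kb, and the phosphatase gene Cdc25a at 30.6 and 99.9. Cdc25c, whose phosphatase activates CDK1 at mitosis, was on the GFI1B list alone at 104 reads per kb, by an interval also listed under 2010110K18Rik, and Cdc20, an activator of the anaphase-promoting complex, on the GFI1 list alone at 52.3. Spindle checkpoint and passenger genes gave 3 of 14 each (21.4%), also near that share, with Tpx2 (52.6 and 55.2) and Incenp (49.4 and 57.6) in both. Mad2l1 (77.4) was listed for GFI1 alone. Mad1l1 (57.5) was listed for GFI1B alone, by an interval also listed under Gm16120. Other cyclins gave 7 and 6 of 15, led by Ccng2 (76.2) for GFI1 and Ccni (77.8) for GFI1B.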

How the data were processed

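DamID was available as the authors' 2 gene lists, 1 per fusion, assigned by worksheet name, and no values of DAM ctrl were used here. Per the file headers the GFI1B list came from BayesPeak and a method written SS (threshold 0.05), with lanes merged and control reads subtracted. The header of the GFI1 list is cut off after BayesPeak, so its threshold and any control subtraction are unknown, though its intervals are also labelled SS. Coordinates are on mm9, per the submitters' processing notes. Aligner, depth and the step from interval to gene are not given in the sources used. Because control reads may have been taken off, the deposited reads of a gene were handled as a score. Reads per kb, the deposited signal, are that score over the summed interval length, with no library scaling. Division of read number by interval length gave it within 0.0046 for all members. With the depth unknown, no counting interval is given.

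Python 3.11.15, pandas 2.3.3 and numpy 2.4.6 were used. Symbols were matched to RefSeq (GRCm38.p6: names, biotypes, lengths and promoter windows only), for 88.4% of GFI1 and 89.1% of GFI1B rows, and listing was set beside 21900 protein-coding genes. Overlap meant at least 1 bp, and this step found all 400 overlapping pairs among 1000 simulated ones. No row was filtered. With 1 pooled sample a group no test was run. All listed members are named, and of each other list at most the 2 strongest genes per fusion. Members and lists were chosen with earlier results of these data known. Promoters are those of the strongest G1, mitotic and inhibitor gene per fusion, and none was available here for Aurkb.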

Additional observations from a re-analysis of the deposited data

How the results depend on the processing

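Counting only genes at or above their list's median reads per kb left 11 members for GFI1, 13 for GFI1B and 8 for both. It left 3 G1 genes for GFI1 and 4 for GFI1B, 1 and 3 mitotic genes, and 2 and 1 CDK inhibitors. With D and E cyclins, Cdk2, Cdk4 and Cdk6 alone, 5 of 8 genes were on the GFI1 list and 4 on the GFI1B list. With all RefSeq genes as background the listed shares were 9.24% and 9.45%. Requiring 50% of both intervals left 10 overlapping intervals of members for each fusion. By read number in place of reads per kb, the median member stood at percentile 62.9 for GFI1 and 51.4 for GFI1B. Leaving out members with no interval of their own (Aurka, GFI1B), pattern matches outside the families or germline members, or matching older symbols, moved no count by over 1.5 times. No paired analysis was possible because each group is 1 pooled sample. With no replicates and no library depth, a gene missing from a list is not shown to be unmarked.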
